A study of Mus musculus with 15 samples.

Results

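Interleukins are secreted proteins through which immune, epithelial and stromal cells signal, and interleukin receptors are the membrane proteins that bind them. The genes described here are those whose symbol begins with Il followed by a digit, with symbols taken from the RefSeq accession of each array probe. This rule found 81 of the 20660 genes with a probe, on 97 probes, and it used no measured value. Messenger RNA was measured on 15 one-colour Agilent arrays, 1 per animal, in whole pancreas of male C57BL/6J mice.

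All mice fasted for 18 h, received 1 intraperitoneal injection and were killed 3 h later. The groups were 4 transgenic (TG) mice given 50 µg/kg cerulein in saline, 3 TG mice given saline, 4 wild type (WT) mice given 50 µg/kg cerulein in saline and 4 WT mice given saline. Cerulein is a cholecystokinin analogue that overstimulates acinar cells and elicits acute pancreatitis in rodents, and mice given saline are labelled as 0 h. The title given to the series ties the study to betacellulin, a ligand of the epidermal growth factor receptor family. The labels give neither the construct of the transgene nor the promoter that drives it, and the 4th TG saline animal that the series text implies was not analysed here. The acinar marker list averaged 8.25 to 9.76 on the log2 scale described below on every array, and its 11 genes with a probe, among them Prss2, Cpa1 and Cela1, were well above background on all 15 arrays.

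Interleukin receptors work as assemblies in which a chain that binds a particular ligand joins a signalling chain shared within a family. The gp130 protein, encoded by Il6st, is the shared chain for interleukin 6, interleukin 11 and several related cytokines and signals through JAK kinases and the transcription factor STAT3. Il17ra encodes the chain shared by the interleukin 17 family, and interleukin 1 signals through the receptor encoded by Il1r1, while the product of Il1r2 binds interleukin 1 without signalling. In pancreatitis, interleukin 1 and interleukin 6 are best known as products of injured acinar cells and of the leukocytes that enter the gland.

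Levels are given on a log2 scale, as the scanner's processed signal relative to the 75th percentile of the same array, so 0 equals that percentile. Different probes of an array cannot be ranked by level, and each comparison below is made within a probe. A gene counted as measured when a probe of it was well above background, by the scanner's own flag, on at least 3 arrays. The groups were compared with limma over all 17338 measured genes, and called means that the p-value, adjusted by Benjamini-Hochberg over those genes within each comparison, was below 0.05. Of the 81 interleukin genes, 63 were measured (77.8%, against 83.9% of all genes), and 37 of them were well above background on all 15 arrays. The other 18 were Il12a, Il13, Il15, Il1a, Il1b, Il1bos, Il1f5, Il1f6, Il1f8, Il1f9, Il1rap, Il1rapl2, Il1rl2, Il20, Il21, Il23r, Il31 and Il7. Of these, 12 were above background on no array and 6 on 1 or 2 arrays. Il1b, which encodes interleukin 1 beta, was above background on 2 arrays, 1 TG cerulein and 1 WT saline. Its levels were -4.56, -5.40, -5.85 and -3.84 in TG cerulein, against -6.12, -5.89 and -4.33 in TG saline pancreas, and -5.50, -5.44, -4.59 and -5.10 in WT cerulein, against -5.97, -6.17, -5.62 and -4.26 in WT saline pancreas. Il1a (interleukin 1 alpha) lay between -7.09 and -4.46 and Il15 (a growth factor of natural killer and T cells) between -7.10 and -4.16, above background on no array. No fold is given for these 3 genes.

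**Figure D1:**
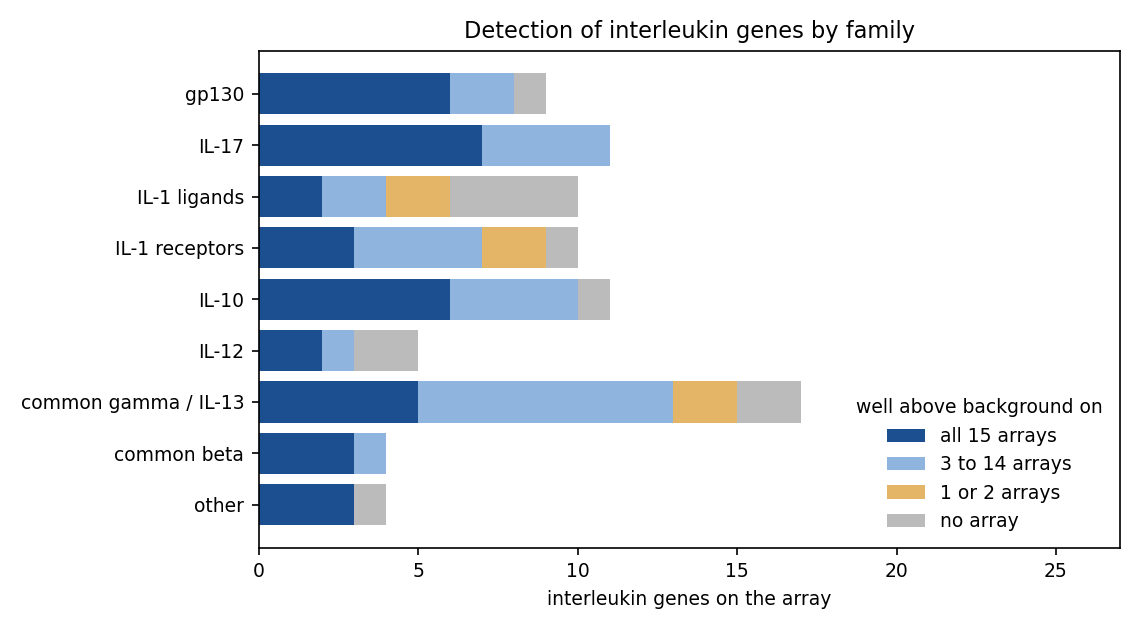
Number of interleukin genes on the array (x axis) in each family (y axis), by the number of arrays on which a gene was well above background. The IL-1 family ligands had 4 of 10 genes measured, while all 11 genes of the IL-17 family were measured.

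Cerulein was followed by a change in 4 interleukin genes that passed the test, and all 4 encode receptors or proteins of a receptor family. Many of the 63 measured genes are of that kind, and many ligands lay near background or were not measured. In TG pancreas 2 of the 63 measured genes were called higher and 0 lower, where 4.78% of all genes were called higher and 3.41% lower. In WT pancreas 3 were called higher and 1 lower, where the shares of all genes were 5.64% higher and 8.35% lower. With normexp background correction the split was 1 higher and 1 lower in TG and 1 higher and 3 lower in WT pancreas. The median difference over the 63 genes was -0.09 in TG and 0.20 in WT pancreas, beside -0.06 over all genes in each, and 29 and 39 of the 63 differences were above 0. The WT direction depended on the setting. With slide (the glass slide that holds several arrays) in the model the medians were -0.23 in TG and -0.09 in WT pancreas, with 18 and 24 differences above 0, and with normexp correction they were -0.28 and -0.26. In whole tissue, fewer cells of a type and less RNA per cell cannot be told apart. The labels number the animals separately, so p-values measure the spread between these animals. Differences between slides are part of that spread, since the main fit has no term for slide.

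The promoter windows of the called genes are shown because these are the genes that passed the test. RefSeq windows of build GRCm38.p6 were listed for 64 of the 81 genes and for 3 of the 4 called ones, with Il17ra not among them. Each runs from 250 bases before to 50 bases after the start, 5′ to 3′, with motif matches in capitals.
Il6st, chr13:112463820-112464119, plus strand: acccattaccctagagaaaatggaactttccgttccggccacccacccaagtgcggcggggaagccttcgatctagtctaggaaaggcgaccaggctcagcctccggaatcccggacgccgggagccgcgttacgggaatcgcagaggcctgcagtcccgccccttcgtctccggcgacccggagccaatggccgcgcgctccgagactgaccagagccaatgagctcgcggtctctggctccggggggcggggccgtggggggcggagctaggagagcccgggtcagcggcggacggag
Il1r2, chr1:40085843-40086142, plus strand: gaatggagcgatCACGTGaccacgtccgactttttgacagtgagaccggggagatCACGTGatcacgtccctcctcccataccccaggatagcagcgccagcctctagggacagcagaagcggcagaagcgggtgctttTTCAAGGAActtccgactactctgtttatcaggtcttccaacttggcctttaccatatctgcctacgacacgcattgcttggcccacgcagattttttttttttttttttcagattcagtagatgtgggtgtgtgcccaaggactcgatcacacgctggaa
Il17rd, chr14:27038751-27039050, plus strand: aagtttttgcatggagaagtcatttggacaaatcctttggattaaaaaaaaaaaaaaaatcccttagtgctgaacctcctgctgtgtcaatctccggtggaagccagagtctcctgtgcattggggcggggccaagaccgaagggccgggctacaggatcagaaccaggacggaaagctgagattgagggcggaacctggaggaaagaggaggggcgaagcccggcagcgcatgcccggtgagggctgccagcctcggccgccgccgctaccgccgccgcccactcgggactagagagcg
The motifs searched on both strands were TTCNNNGAA (STAT), the NF-kB consensus, TGANTCA (AP-1) and CACGTG (E-box), and no 2 matches overlapped in these windows. The Il1r2 window held 1 STAT match, 111 bases before the start, and 2 E-box matches, 238 and 195 bases before it. The Il6st and Il17rd windows held no match to any of them. Of 32851 listed windows, 8.3% held the STAT motif, 5.81% the NF-kB consensus, 7.81% the AP-1 motif and 7.15% the E-box. Among the 64 windows of interleukin genes the numbers were 9, 5, 12 and 2.

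Il6st, which encodes the shared chain gp130, was called higher after cerulein in both genotypes. Its levels were 1.57, 1.67, 2.27 and 1.5 on the TG cerulein arrays, against -0.01, 0.41 and 0.43 on the TG saline arrays. On the WT arrays they were 1.51, 2.01, 1.08 and 0.95 after cerulein, against -0.07, 0.22, -0.16 and 0.70 after saline. In each genotype every cerulein array lay above every saline array. The group means were 1.75 ± 0.35 for TG cerulein (SD, n = 4), 0.28 ± 0.25 for TG saline (n = 3), 1.39 ± 0.48 for WT cerulein (n = 4) and 0.17 ± 0.39 for WT saline (n = 4). The log2 difference was 1.47 ± 0.30 (SE, limma adjusted p = 0.00661) in TG and 1.21 ± 0.28 (adjusted p = 0.00976) in WT pancreas. The size of the change was as large within slides, though each such comparison had a single array in at least 1 group. In TG pancreas it was 1.62 on slide 1 (2 cerulein arrays and 1 saline array) and 1.85 on slide 3 (1 and 2). In WT pancreas it was 1.58 on slide 1 (1 and 1) and 1.76 on slide 3 (1 and 3). Il6st kept its call and direction in every alternative run.

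**Figure D2:**
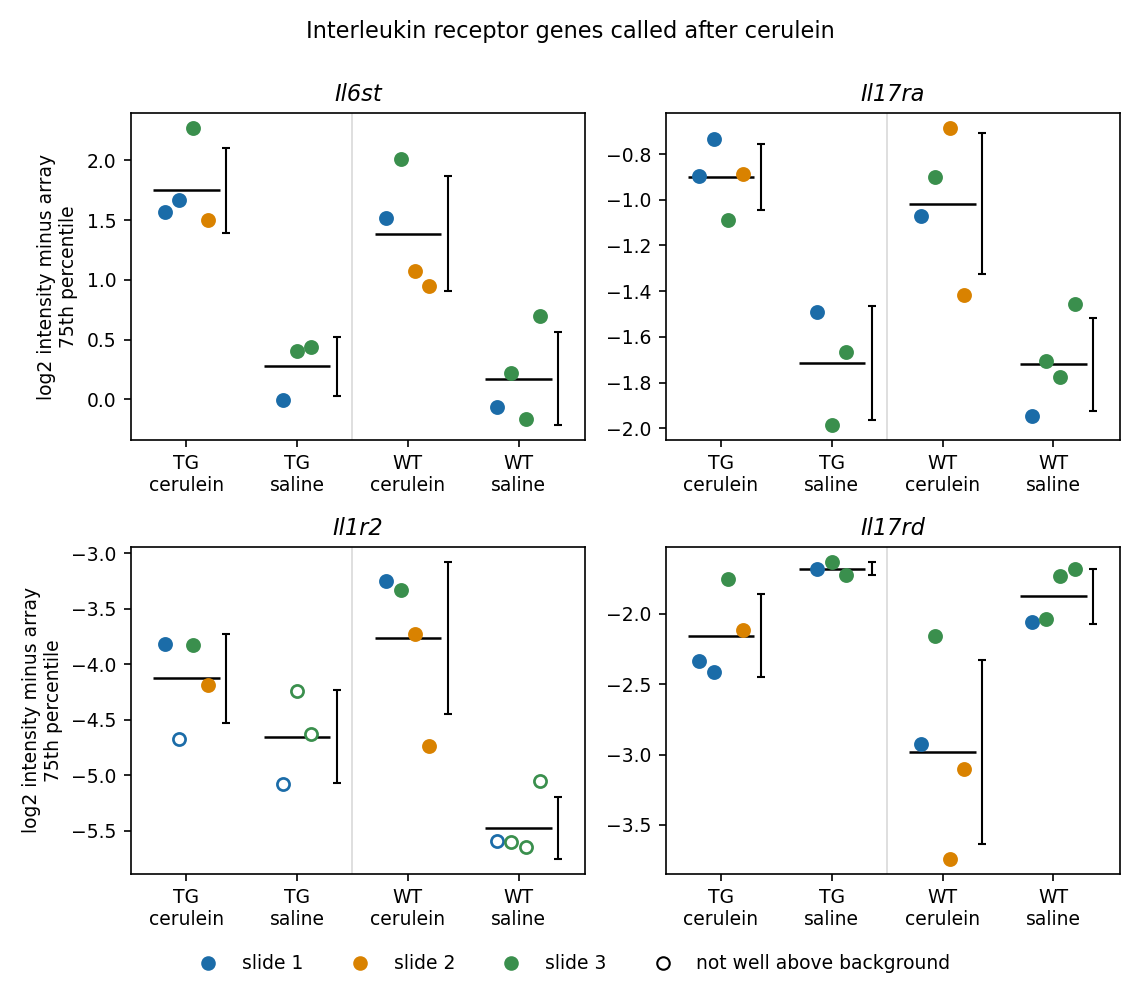
Level of the 4 called receptor genes (y axis, log2 intensity minus the array's 75th percentile) by group (x axis), 1 point per array coloured by slide and open where not well above background. Lines are group means and bars beside them SDs. Il6st and Il17ra were higher on every cerulein array than on every saline array of the same genotype.

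Other gp130 family genes did not pass the test. Il6ra, the chain that binds interleukin 6 and pairs with gp130, had 4.29, 4.0, 4.37 and 2.95 on the TG cerulein arrays, against 3.64, 3.48 and 3.44 on the TG saline arrays. It had 3.97, 4.62, 4.14 and 3.34 on the WT cerulein arrays, against 3.58, 3.77, 3.31 and 3.61 on the WT saline arrays. In both genotypes 3 of the 4 cerulein arrays exceeded every saline array, and the lowest cerulein array of each was on slide 2. The differences were 0.38 ± 0.34 (adjusted p = 0.564) and 0.45 ± 0.31 (adjusted p = 0.341). With slide as a term in the model, the WT difference was 0.91 (adjusted p = 0.023) and the TG difference 0.63 (adjusted p = 0.09).

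Levels of Il6 itself, the ligand, separated slide 3 from slides 1 and 2, while its treatment groups overlapped. Its levels were -3.20, -4.56, -5.21 and -3.32 on the TG cerulein arrays, against -3.58, -5.95 and -6.22 on the TG saline arrays. On the WT arrays they were -4.61, -5.55, -2.59 and -3.36 after cerulein, against -3.83, -6.17, -4.90 and -6.38 after saline. The groups overlapped in both genotypes. All 7 arrays of slide 3 lay between -6.38 and -4.90 and none was well above background, while the 8 arrays of slides 1 and 2 lay between -4.61 and -2.59 and all were. The fitted differences were 1.17 ± 0.83 in TG (adjusted p = 0.454) and 1.29 ± 0.77 in WT pancreas (adjusted p = 0.263), and with slide in the model they were 0.22 (adjusted p = 0.79) and -0.03 (adjusted p = 0.975). Slide 2 held 1 TG cerulein and 2 WT cerulein arrays and no saline array, and slide 3 held 2 of the 8 cerulein arrays and 5 of the 7 saline arrays. Slide and scan coincide, so their parts cannot be told apart. Treatment was unevenly spread over the slides and Il6 was at background on all of slide 3, so slide and treatment cannot be told apart here. With limma array weights Il6 was called higher, by 1.56 in TG (adjusted p = 0.013) and 2.33 in WT pancreas (adjusted p = 0.00844).

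Il11, a gp130 cytokine of stromal cells, had -2.12, -2.03, -2.31 and -0.29 in TG cerulein, against -1.81, -2.06 and -2.19 in TG saline pancreas, and -1.04, -2.13, -0.39 and -0.02 in WT cerulein, against -0.90, -2.10, -2.20 and -2.12 in WT saline pancreas. The 3 arrays of slide 2 were the highest of the 15. The difference was 0.34 ± 0.53 (adjusted p = 0.761) in TG and 0.94 ± 0.49 (adjusted p = 0.208) in WT pancreas. With slide in the model they were -0.28 and -0.06. The remaining measured members of the family, Il11ra1, Il27, Il27ra and Il31ra, had differences of -0.50 to 0.36 in TG and of -0.60 to 0.68 in WT pancreas, and none was called.

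**Figure D3:**
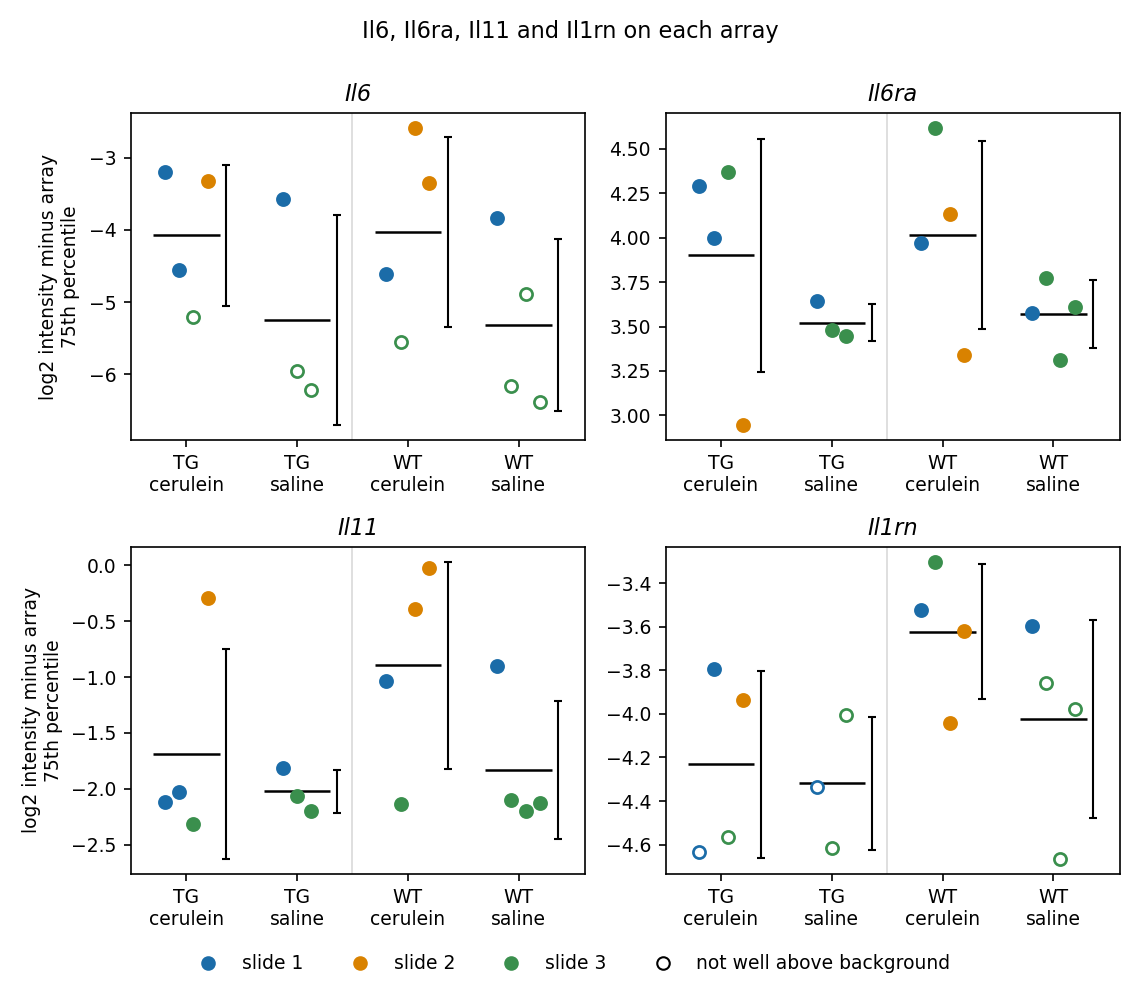
Level of Il6, Il6ra, Il11 and Il1rn (y axis, log2 intensity minus the array's 75th percentile) by group (x axis), drawn as in the plot of the called receptors. For Il6 the 7 points of slide 3 lie below the 8 points of slides 1 and 2 whatever the group.

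Slide 3 stood apart for 8 interleukin genes. Il6, Il12rb1, Il18rap, Il24, Il31ra and Il9r were lower on every slide 3 array than on every other array, where 5.35% of all genes were. Il11ra1 and Il15ra were higher on every slide 3 array, where 10.1% of all genes were. The 75th percentile of intensity was 152 to 265 on slide 3, 237 to 330 on slide 1 and 381 to 529 on slide 2. The part of signal strength in these levels was not tested. With slide in the model, TG pancreas had 2 interleukin genes called higher and 1 lower, where 15.2% of all genes were called higher and 8.35% lower. WT pancreas had 5 higher and 3 lower, where 13.8% and 7.79% of all genes were. Il6st and Il17ra were called in both genotypes and Il1r2 and Il17rd in WT pancreas, as without slide. The genes added were Il12rb1 (lower) in TG, with Il6ra and Il5ra (higher) and Il12rb1 and Il1f10 (lower) in WT pancreas. The second Il12rb1 probe ran the other way, as given with the IL-12 family.

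Il17ra, the chain that all interleukin 17 receptors share, was called higher in both genotypes. It had -0.89, -0.74, -1.09 and -0.89 on the TG cerulein arrays, against -1.49, -1.99 and -1.67 on the TG saline arrays. On the WT arrays it had -1.07, -0.90, -0.69 and -1.42 after cerulein, against -1.95, -1.71, -1.77 and -1.46 after saline. The groups did not overlap in either genotype, though the nearest WT arrays, at -1.42 and -1.46, lay close together. The difference was 0.81 ± 0.22 (adjusted p = 0.0322) in TG and 0.70 ± 0.20 (adjusted p = 0.0328) in WT pancreas, and 0.81 and 0.71 with slide in the model. The TG call was lost without TG cerulein replicate 13, 14 or 16, TG saline replicate 3 or 4 or WT saline replicate 6 (0.68 to 0.92 over arrays left out, adjusted p up to 0.183). The WT call was lost without WT cerulein replicate 9 or 11 or WT saline replicate 5, 6 or 7 (0.59 to 0.83, adjusted p up to 0.10).

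Il17rd, also called Sef, an inhibitor of fibroblast growth factor signalling that belongs to the IL-17 receptor family by sequence, was called lower in WT pancreas. It had -2.93, -2.16, -3.74 and -3.10 on the WT cerulein arrays, against -2.06, -2.03, -1.73 and -1.68 on the WT saline arrays, with no overlap. On the TG arrays it had -2.34, -2.41, -1.76 and -2.11 after cerulein, against -1.68, -1.63 and -1.72 after saline, also with no overlap. The difference was -1.11 ± 0.28 (adjusted p = 0.0166) in WT and -0.48 ± 0.30 (adjusted p = 0.391) in TG pancreas, and the test of the difference between genotypes gave 0.63 ± 0.41 (unadjusted p = 0.145, adjusted p = 1). The 2 WT cerulein arrays of slide 2 had the lowest levels, and without slide 2 the WT difference was -0.67 (adjusted p = 0.17). Within slides it was -0.87 on slide 1 (1 cerulein and 1 saline array) and -0.34 on slide 3 (1 cerulein and 3 saline arrays). The call was also lost without WT saline replicate 7 (-1.06, adjusted p = 0.0535) or 8 (-1.04, adjusted p = 0.0519).

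The other 9 genes of the IL-17 family comprise the ligands Il17a, Il17b, Il17c, Il17d, Il17f and Il25 and the receptors Il17rb, Il17rc and Il17re. None was called in either genotype. Their differences ran from -0.71 (Il17d) to 0.60 (Il17rb) in TG and from -0.54 (Il17d) to 0.89 (Il25) in WT pancreas, on the tested probes. Il17d, Il17rb and Il17rc each had 2 probes, which were compared after their values were seen. For Il17rb the second probe gave 0.32 in TG and 1.3 in WT pancreas, beside 0.60 and 0.04 from the tested probe, and 3 of its 4 WT saline arrays were not well above background. For Il17rc the probes gave 0.15 and 0.24 in TG and -0.16 and -0.18 in WT pancreas. The second Il17d probe had -0.03, -0.18, -0.13 and 0.22 on the TG cerulein arrays, against 0.80, 0.98 and 0.79 on the TG saline arrays. It had 0.30, 0.33, 0.27 and 0.39 on the WT cerulein arrays, against 0.70, 0.96, 1.11 and 0.76 on the WT saline arrays. On this probe every cerulein array lay below every saline array of its genotype. The first Il17d probe, whose groups overlapped in both genotypes, gave 4.38, 4.13, 3.85 and 2.78 in TG cerulein, against 4.31, 4.73 and 4.43 in TG saline pancreas, and 3.87, 4.54, 4.03 and 3.88 in WT cerulein, against 4.46, 4.82, 4.65 and 4.58 in WT saline pancreas.

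Il1r2, the decoy receptor that binds interleukin 1 without signalling, was above background on no saline array. It was well above background on 3 of 4 TG cerulein and 0 of 3 TG saline arrays, and on 4 of 4 WT cerulein and 0 of 4 WT saline arrays. Its levels were -3.25, -3.33, -3.73 and -4.74 on the WT cerulein arrays, against -5.59, -5.60, -5.64 and -5.05 on the WT saline arrays, with no overlap. They were -3.82, -4.67, -3.83 and -4.19 on the TG cerulein arrays, against -5.08, -4.24 and -4.63 on the TG saline arrays, with overlap. Since the saline groups give a bound alone, each array of them was set to the higher of its own value and the lowest signal among its probes above background. On that basis Il1r2 was at least 1.41-fold higher after cerulein in WT pancreas. It was called there from the levels before this replacement (limma adjusted p = 0.00296). In TG pancreas the groups overlapped and cerulein replicate 14 was not well above background, so no fold is given. It was not called there (limma adjusted p = 0.426). Il1r2 counted as measured through cerulein arrays alone. Adjusted p beside other such bounds below also come from the levels before replacement. The difference between genotypes had an unadjusted p of 0.0256 and an adjusted p of 1.

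Neutrophils are known to carry Il1r2, and 10 of 14 neutrophil markers were measured. The list mean was -1.57 to -0.40 on the WT cerulein arrays, against -2.38 to -1.3 on the WT saline arrays. In WT pancreas 3 markers, S100a8, S100a9 and Clec4d, were called higher, where 5.64% of all genes were. In TG pancreas the list mean was -0.87 to -0.06 after cerulein, against -1.18 to -0.21 after saline. Clec4d was called higher there, where 4.78% of all genes were. None of the other measured markers was called in either genotype. With slide in the model 3 were called higher and 0 lower in WT (13.8% and 7.79% of all genes). In TG pancreas 1 was then higher and 1 lower (15.2% and 8.35%). Of the defining markers, Ly6g had no probe, Mmp8 and Mmp9 were above background on no array and Ngp on 2. The part of neutrophils in the Il1r2 level was not tested. With normexp background correction the WT difference of Il1r2 was -0.26 (adjusted p = 0.325), where the median of all genes was -0.23.

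Other IL-1 family genes were not called. Il1r1, the signalling receptor, had -1.13, -0.69, -0.08 and -0.62 in TG cerulein, against -0.83, -0.97 and -0.92 in TG saline pancreas, and -1.19, -1.15, -1.40 and -1.69 in WT cerulein, against -2.37, -0.98, -1.69 and -1.21 in WT saline pancreas. Its cerulein groups overlapped their saline groups, and the differences were 0.28 ± 0.31 (adjusted p = 0.661) and 0.20 ± 0.29 (adjusted p = 0.646). Il1rl1, the receptor of interleukin 33, had -3.32, -2.54, -2.26 and -1.74 in TG cerulein, against -2.76, -3.42 and -2.91 in TG saline pancreas, and -3.11, -3.93, -3.85 and -2.36 in WT cerulein, against -3.55, -3.94, -5.76 and -3.57 in WT saline pancreas. The differences were 0.57 ± 0.53 (adjusted p = 0.585) and 0.89 ± 0.49 (adjusted p = 0.231), from the 1 of its 3 probes that was measured.

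Il1rn encodes the receptor antagonist of interleukin 1. It was above background on 2 of 4 TG cerulein and 0 of 3 TG saline arrays, and on 4 of 4 WT cerulein and 1 of 4 WT saline arrays. Its levels were -4.63, -3.79, -4.56 and -3.94 in TG cerulein, against -4.34, -4.62 and -4.0 in TG saline pancreas, and -3.52, -3.30, -4.04 and -3.62 in WT cerulein, against -3.60, -3.86, -4.66 and -3.98 in WT saline pancreas. The WT difference was 0.40 ± 0.28 (adjusted p = 0.333), and in TG pancreas no fold above 1 could be bounded (adjusted p = 0.896).

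Il33, an alarmin of stromal and epithelial nuclei, and Il18, a cytokine activated by caspase 1, were the ligands of the family measured on at least 14 arrays beside Il1f10. Il33 had -2.45, -2.45, -1.42 and -1.3 in TG cerulein, against -1.93, -1.25 and -1.36 in TG saline pancreas, and -1.02, -1.75, -3.37 and -2.50 in WT cerulein, against -1.96, -1.98, -2.83 and -0.45 in WT saline pancreas. Il18 had -2.30, -1.92, -1.90 and -2.29 in TG cerulein, against -1.23, -1.62 and -1.82 in TG saline pancreas, and -1.67, -2.56, -3.79 and -3.59 in WT cerulein, against -2.55, -2.87, -3.13 and -0.94 in WT saline pancreas. Every TG cerulein array of Il18 lay below every TG saline array, and the WT groups overlapped. The Il33 differences were -0.39 ± 0.57 (adjusted p = 0.738) and -0.35 ± 0.53 (adjusted p = 0.656), and those of Il18 -0.55 ± 0.52 (adjusted p = 0.589) and -0.53 ± 0.48 (adjusted p = 0.461).

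Over all 63 genes, the groups did not overlap for 7 in TG pancreas and 4 in WT pancreas. In TG pancreas Il6st and Il17ra were higher on every cerulein array, where 9.95% of all genes were, and Il17rd, Il18, Il18r1, Il22ra2 and Il4 were lower, where 11.6% of all genes were. In WT pancreas Il6st, Il17ra and Il1r2 were higher, where 7.35% of all genes were, and Il17rd was lower, where 10.1% were. At an unadjusted p below 0.05 the model marked 3 interleukin genes in TG and 6 in WT pancreas. Of all 17338 measured genes it marked 3781 in TG and 5399 in WT pancreas.

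**Figure D4:**
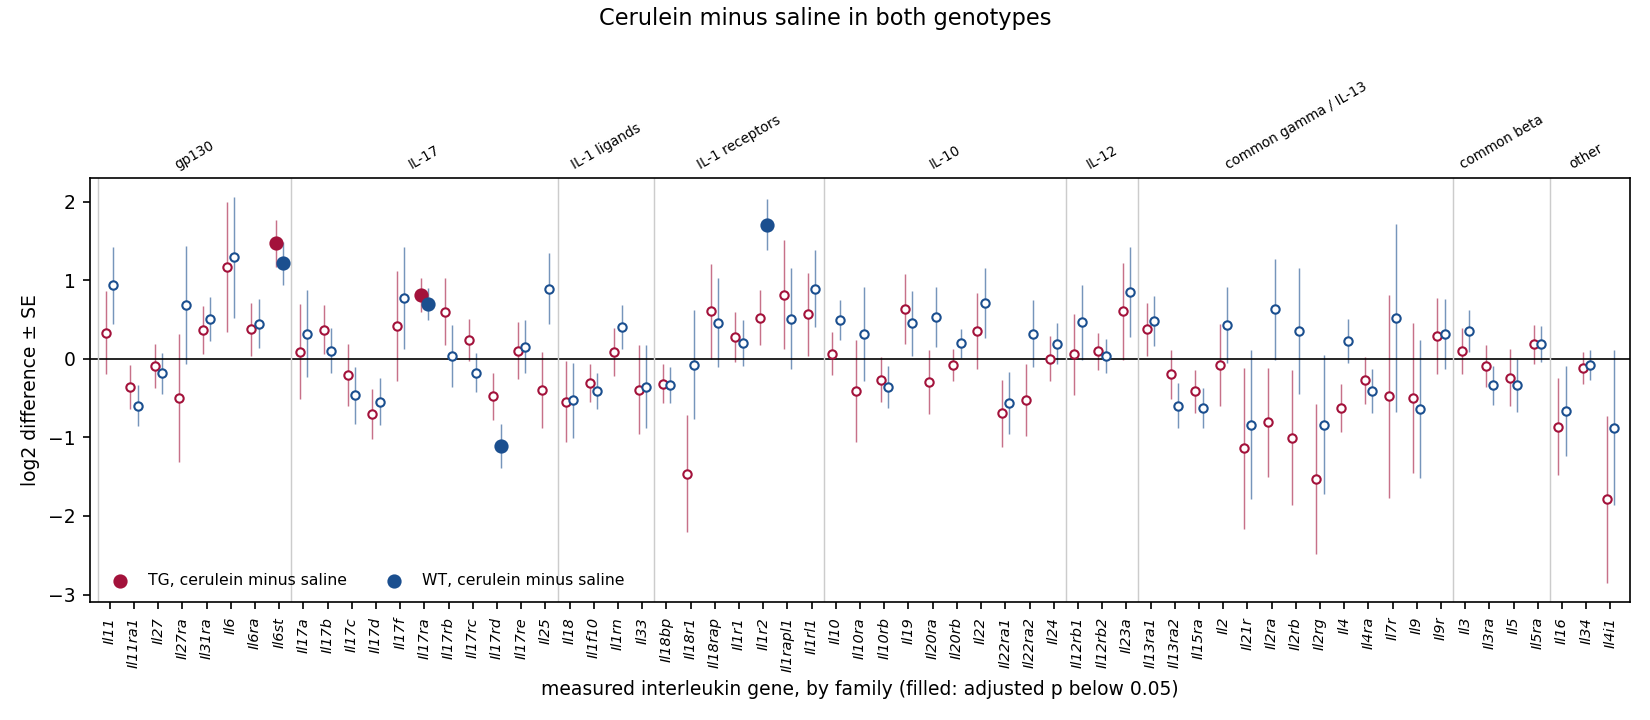
Log2 difference, cerulein minus saline, of the 63 measured interleukin genes (x axis, by family) in TG and WT pancreas, with SE bars from limma. Filled points passed an adjusted p below 0.05: Il6st and Il17ra in both genotypes, Il1r2 and Il17rd in WT pancreas.

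In the IL-10 family, 10 of 11 genes were measured and none was called. Il10, the anti-inflammatory cytokine, was above background on 1 of 4 TG cerulein and 0 of 3 TG saline arrays, and on 2 of 4 WT cerulein and 0 of 4 WT saline arrays. Its levels of -4.66, -4.70, -5.48 and -4.27 in TG cerulein, against -4.68, -4.99 and -4.86 in TG saline pancreas, and -4.56, -4.94, -4.44 and -3.95 in WT cerulein, against -5.04, -4.97, -4.97 and -4.87 in WT saline pancreas, allow no fold to be bounded. Il10rb, the chain shared by the receptors of interleukins 10 and 22, had 0.30, 0.68, 0.99 and 0.61 in TG cerulein, against 0.75, 1.0 and 0.98 in TG saline pancreas, and 0.89, 1.07, -0.28 and 0.23 in WT cerulein, against 0.65, 0.94, 0.90 and 0.84 in WT saline pancreas. The groups overlapped, with differences of -0.26 ± 0.29 (adjusted p = 0.647) and -0.36 ± 0.27 (adjusted p = 0.373).

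Il22ra1, the epithelial receptor chain for interleukin 22 that acinar cells carry, had 1.14, -0.20, 0.45 and -0.25 in TG cerulein, against 0.75, 0.87 and 1.33 in TG saline pancreas, and 0.38, 1.22, 0.87 and -0.71 in WT cerulein, against 0.69, 0.79, 1.26 and 1.27 in WT saline pancreas. The differences of -0.70 ± 0.42 (adjusted p = 0.375) and -0.56 ± 0.39 (adjusted p = 0.341) came from groups that overlapped, and its second probe gave 0.05 and 0.36. The other 7 measured genes of the family, Il10ra, Il19, Il20ra, Il20rb, Il22, Il22ra2 and Il24, had differences of -0.52 to 0.63 in TG and of 0.19 to 0.71 in WT pancreas.

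In the IL-12 family, Il12rb1, Il12rb2 and Il23a were measured and none was called. Il12rb1 encodes the chain shared by the receptors of interleukins 12 and 23, and its 2 probes, each above background on all 15 arrays and compared after their values were seen, disagreed. The brighter probe, which was tested, had 0.50, 0.54, -0.94 and 0.79 on the TG cerulein arrays, against 0.87, -0.25 and -0.13 on the TG saline arrays. It had 0.60, -0.75, 1.2 and 1.25 on the WT cerulein arrays, against 0.91, -0.22, -0.05 and -0.21 on the WT saline arrays. On this probe the groups overlapped and slide 3 was low throughout.

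The other Il12rb1 probe had -1.11, -0.77, -0.29 and -0.68 on the TG cerulein arrays, against -1.82, -2.34 and -1.86 on the TG saline arrays. It had -0.08, 0.19, -0.76 and -0.44 on the WT cerulein arrays, against -1.83, -1.75, -2.19 and -1.52 on the WT saline arrays. Here every cerulein array lay above every saline array of its genotype. This included slides 1 and 3 taken singly, where each comparison had a single array in at least 1 group. The differences were 1.29 in TG and 1.55 in WT pancreas, beside 0.06 and 0.46 from the tested probe. With slide in the model the tested probe was called lower, with -0.59 in TG (adjusted p = 0.00632) and -0.42 in WT pancreas (adjusted p = 0.039), so the direction depends on probe and setting. With the mean of the kept probes per gene and without slide, Il12rb1 had a difference of 1.01 in WT pancreas (adjusted p = 0.012) and 0.68 in TG pancreas (adjusted p = 0.131). Under that setting 2 interleukin genes were called higher and 1 (Il17d, -0.80, adjusted p = 0.0218) lower in TG pancreas, where 4.91% and 3.57% of all genes were. In WT pancreas 5 were called higher, Il12rb1 and Il17rb (0.67, adjusted p = 0.0304) among them, and 1 lower, where 6% and 8.21% of all genes were.

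Among the genes of the common gamma chain and interleukin 13 family, 13 of 17 were measured and none was called, with differences of -1.53 to 0.37 in TG and of -0.84 to 0.63 in WT pancreas. Il4ra, which binds interleukin 4 and pairs with chains for interleukins 4 and 13, had 0.28, 0.53, -0.45 and -0.18 in TG cerulein, against 0.78, 0.02 and 0.15 in TG saline pancreas, and -0.10, -0.20, 0.05 and 0.83 in WT cerulein, against 0.64, 0.63, 0.59 and 0.36 in WT saline pancreas. The groups overlapped, with differences of -0.27 ± 0.30 (adjusted p = 0.647) and -0.41 ± 0.28 (adjusted p = 0.323). The 4 common beta chain genes Il3, Il3ra, Il5 and Il5ra had differences of -0.24 to 0.18 in TG and of -0.34 to 0.36 in WT pancreas. Il16, Il34 and Il4i1, which belong to none of these families, had differences of -1.79 to -0.12 in TG and of -0.88 to -0.08 in WT pancreas.

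Il2rg and Il4i1 are given on single arrays because they spread widely within groups, and were chosen after their values were seen. Il2rg encodes the common gamma chain of the receptors of interleukins 2, 4, 7, 9, 15 and 21. It had -3.21, -4.68, -1.71 and -1.51 on the TG cerulein arrays, against -1.60, -1.15 and -1.0 on the TG saline arrays, and -0.97, -2.67, -3.83 and -2.96 on the WT cerulein arrays, against -1.33, -1.67, -4.34 and 0.27 on the WT saline arrays. The WT saline group thus held both its highest array, replicate 8, and an array at background, replicate 7. Il4i1, an amino acid oxidase of antigen-presenting and B cells, spanned -2.04 to 2.73 between the same 2 arrays.

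The mean of 12 measured lymphocyte markers, none of which is an interleukin gene, was -1.07 to 0.73 in TG cerulein, 0.64 to 0.79 in TG saline, -0.34 to 1.18 in WT cerulein and -1.84 to 1.75 in WT saline pancreas. The defining markers Cd3e, Cd3d and Ms4a1 were each above background on at least 13 arrays. Across the 15 arrays, 13 of 63 interleukin genes correlated with that mean after adjustment over the 63 relations (permutation test with 100000 resamples, two-sided, all positive). The permutations ran over all 15 arrays whatever their group or slide. The relation was not computed for other genes, so whether this share is particular to interleukin genes was not tested. Il2rb, a chain of the receptors of interleukins 2 and 15, had r = 0.975 and rho = 0.939, each with a permutation p of 1e-05, the smallest that these resamples can give (adjusted p = 0.000105 and 0.000126). Without the 2 arrays farthest from the median of the marker mean its r was 0.945, and it was 0.983 over the 7 arrays of slide 3 and 0.964 over the 8 of slides 1 and 2.

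Il2rg (r = 0.94, rho = 0.971), Il4i1 (0.94, 0.979), Il7r (0.94, 0.839), Il18r1 (0.936, 0.896), Il16 (0.912, 0.968) and Il21r (0.906, 0.964) also had permutation p between 1e-05 and 0.00016 for both measures. For Il2rb and these genes, 7 in all, r stayed above 0.8 without the 2 farthest arrays and on either set of slides. With the group means subtracted, their r was 0.91 (Il21r) to 0.991 (Il2rb). The others of the 13 were Il2ra, Il27ra, Il4, Il33, Il5 and Il10ra, with r of 0.687 to 0.851 and 0.496 to 0.815 without the 2 farthest arrays, so that the relations of all of these but Il33 were weaker without those arrays. The 4 called genes had r of -0.24 to 0.18, and none passed the adjustment. No lymphocyte marker was called in either genotype. With slide in the model 1 was called lower in TG pancreas, where 8.35% of all genes were. None was then called in WT pancreas, where 13.8% of all genes were called higher and 7.79% lower. The part of lymphocytes in these levels was not tested.

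**Figure D5:**
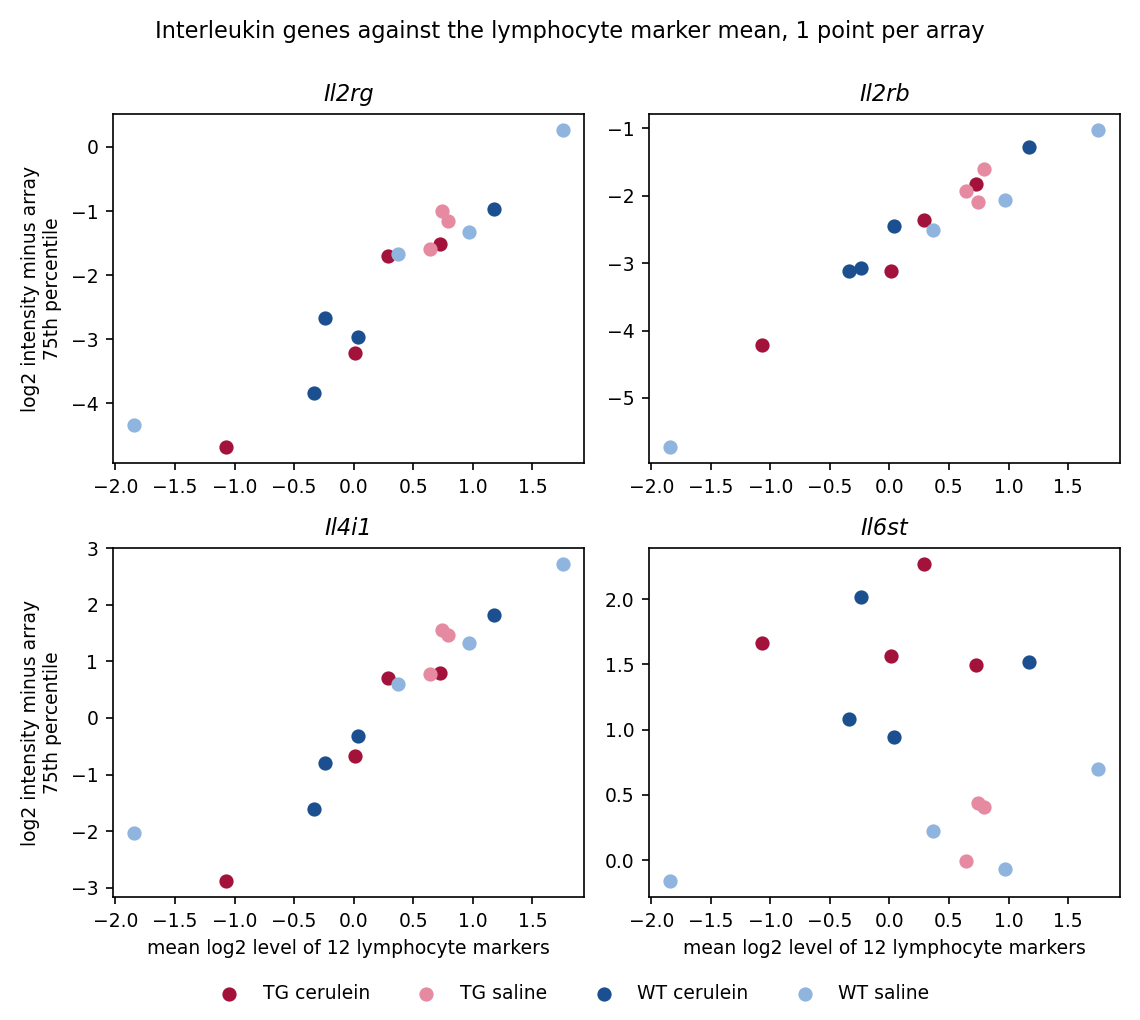
Level of Il2rg, Il2rb, Il4i1 and Il6st (y axis, log2 intensity minus the array's 75th percentile) against the mean log2 level of 12 lymphocyte markers (x axis), 1 point per array coloured by group. The first 3 genes follow the marker mean (r = 0.94 to 0.975), and Il6st had r = -0.06.

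The transgene was compared with wild type under each treatment. No interleukin gene was called after saline, where 0.075% of all genes were, none after cerulein, where 0.144% of all genes were, and none in the test of the difference between the genotypes' cerulein responses, where 0% of all genes were called (limma adjusted p of at least 0.414, 0.351 and 1). At an unadjusted p below 0.05 there were 4, 6 and 1 interleukin genes, beside 557, 1222 and 134 of all 17338 measured genes. With limma array weights the counts called were 3, 4 and 0, and the shares of all genes under these weights are not given here. The difference between genotypes was 0.36 ± 0.28 for Il6st (adjusted p = 0.824) and 0.12 ± 0.20 for Il17ra (adjusted p = 0.884) after cerulein.

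Some genes separated the genotypes without passing the test, and they are named after their values were seen. After saline, Il1r1, Il1rl1, Il22ra2 and Il34 were higher on every TG array than on every WT array, where 4.41% of all genes were, and Il17rb was lower, where 2.21% were. For Il17rb this held for the tested probe (difference -0.69), and the second probe gave 1.18, the opposite direction. After cerulein Il1r1, Il22ra2 and Il34 were again higher on every TG array, where 1.57% of all genes were, and Il25 was lower, where 0.94% were. For Il1r1 the nearest TG and WT arrays almost touched, at -0.97 and -0.98 after saline and at -1.13 and -1.15 after cerulein. Il25 was well above background on 2 of 4 WT cerulein and 1 of 4 WT saline arrays and on no TG array, so it was measured through WT arrays alone and its TG levels are background. Il22ra2, a soluble decoy receptor of interleukin 22, had -0.69, -1.17, -0.79 and -1.06 in TG cerulein, against -1.70, -2.65, -1.73 and -1.52 in WT cerulein pancreas, and -0.37, -0.49 and -0.35 in TG saline, against -1.82, -2.39, -3.66 and -1.02 in WT saline pancreas. The difference was 1.82 ± 0.46 after saline (adjusted p = 0.414) and 0.97 ± 0.42 after cerulein (adjusted p = 0.676).

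Il34, a ligand of the macrophage growth factor receptor Csf1r, had -1.56, -1.13, -1.34 and -1.04 in TG cerulein, against -1.73, -1.95, -1.75 and -1.70 in WT cerulein pancreas, and -1.31, -1.14 and -0.99 in TG saline, against -1.41, -1.61, -2.04 and -1.74 in WT saline pancreas. The differences were 0.51 ± 0.19 (adjusted p = 0.541) after cerulein and 0.55 ± 0.21 (adjusted p = 1) after saline. The mean of 10 measured fibroblast and stellate cell markers was 1.31 to 2.56 in TG cerulein, against 0.06 to 1.14 in WT cerulein pancreas. After saline it was 1.5 to 2.11 in TG, against 0.80 to 1.26 in WT pancreas. Marker lists of other cell types differed as well. The median difference after saline was 1.11 for neutrophil, 0.86 for fibroblast, 0.53 for islet and 0.43 for duct markers. It was -0.23 for acinar, -0.10 for endothelial and -0.32 for adipocyte markers. Macrophage, lymphocyte and mast cell markers had 0.28, 0.21 and 0.11. Of the fibroblast and stellate cell markers Col1a1, Col1a2 and Lum were called higher in TG after cerulein, where 0.144% of all genes were called in either direction. None of these markers was called after saline, where 0.075% of all genes were. The part of stromal or other cells in the Il1r1, Il22ra2 and Il34 levels was not tested.

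Genes that act beside interleukin receptors were read from lists that hold no interleukin symbol. Of 24 measured JAK, STAT and inhibitor genes, 2 were called higher and 0 lower in TG pancreas, and 2 higher and 1 lower in WT pancreas, where 4.78% and 3.41% of all genes were in TG and 5.64% and 8.35% in WT pancreas. With slide in the model the counts were 11 higher and 2 lower in TG and 10 higher and 1 lower in WT pancreas, where 15.2% and 8.35% of all genes were in TG and 13.8% and 7.79% in WT pancreas. Stat5a, a transcription factor of cytokine receptors, rose by 1.05 ± 0.30 in TG (adjusted p = 0.042) and 1.31 ± 0.28 in WT pancreas (adjusted p = 0.00597). Socs3, the feedback inhibitor that binds gp130, rose by 1.64 ± 0.48 in TG pancreas (adjusted p = 0.0483) and had a difference of 0.90 ± 0.44 in WT pancreas (adjusted p = 0.179). Socs6 rose by 0.85 (adjusted p = 0.0387) and Jak3, the kinase of the common gamma chain, fell by 0.58 on the log2 scale (adjusted p = 0.0483) in WT pancreas. The median difference of the list was 0.18 in TG and 0.16 in WT pancreas, and 0.45 and 0.56 with slide in the model.

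Of 25 measured genes of cytokines and receptors related to gp130, interferon and hematopoietic families without an interleukin symbol, 3 were called higher and 2 lower in TG (4.78% and 3.41% of all genes) and 2 higher and 2 lower in WT pancreas (5.64% and 8.35% of all genes). With slide in the model 4 were higher and 2 lower in each genotype. The shares of all genes were then 15.2% and 8.35% in TG and 13.8% and 7.79% in WT pancreas. Osmr, the oncostatin M receptor chain that pairs with gp130, rose by 1.36 ± 0.26 in TG (adjusted p = 0.00455) and 1.31 ± 0.24 in WT pancreas (adjusted p = 0.00243). Lif, a gp130 cytokine, was at least 3.95-fold higher in TG pancreas after cerulein (adjusted p = 0.0201), being above background on 4 of 4 TG cerulein and 0 of 3 TG saline arrays, and had a difference of 1.66 ± 0.73 in WT pancreas (adjusted p = 0.141). Ifnlr1, the chain that binds interferon lambda, rose by 2.23 ± 0.34 in TG (adjusted p = 0.000857) and 2.80 ± 0.31 in WT pancreas (adjusted p = 4.8e-05). Ctf1, a gp130 cytokine, fell by 1.48 and 1.62 on the log2 scale (adjusted p = 0.00514 and 0.00112), and Ifnar1, a chain of the type I interferon receptor, fell by 0.90 and 1.26 (adjusted p = 0.0361 and 0.00226), in TG and WT pancreas.

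Among 25 measured genes of IL-1 receptor signalling and the inflammasome, Rela, a subunit of NF-kB, rose by 2.13 ± 0.28 in TG (adjusted p = 0.000251) and 1.93 ± 0.26 in WT pancreas (adjusted p = 0.000206). In WT pancreas Irak3, an inhibitor of IL-1 receptor kinases, rose by 1.22 (adjusted p = 0.0363) and Ikbkg, the regulatory subunit of the kinase that releases NF-kB, by 1.16 (adjusted p = 0.00902). The list thus had 1 gene called higher in TG (4.78% of all genes) and 3 in WT pancreas (5.64%). It had 0 lower in either, where 3.41% and 8.35% of all genes were. With slide in the model 7 were called higher in TG and 6 in WT pancreas, where 15.2% and 13.8% of all genes were. Again 0 were lower, where 8.35% and 7.79% of all genes were. The median difference was 0.02 in TG and 0.08 in WT pancreas, and 0.22 and 0.24 with slide in the model.

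Of 28 measured genes that IL-1, IL-6, IL-17 or IL-22 signalling is known to induce, 10 were called higher and 1 lower in TG pancreas, where 4.78% and 3.41% of all genes were, and 13 higher and 0 lower in WT pancreas, where 5.64% and 8.35% were. Ccl7 and Cxcl1, chemokines for monocytes and neutrophils, were above background on no saline array. After cerulein Ccl7 was at least 15.9-fold higher in TG (adjusted p = 9.88e-06) and at least 16.4-fold higher in WT pancreas (adjusted p = 1.36e-06), and Cxcl1 at least 7.04-fold (adjusted p = 4.09e-07) and at least 5.64-fold higher (adjusted p = 2.5e-07). Cebpb, a transcription factor of the acute phase response, rose by 3.06 ± 0.35 in TG (adjusted p = 9.27e-05), and Ccl2 rose by 3.33 ± 0.31 in WT pancreas (adjusted p = 9.16e-06). Reg3g, an antibacterial lectin named here after its values were seen, was the gene called lower in TG pancreas, with a difference of -2.95 ± 0.79 (adjusted p = 0.0315). The list's median difference was 1.06 in TG and 1.3 in WT pancreas, while that of the 63 interleukin genes was -0.09 and 0.20. The list was chosen with results of these data known, and many of its genes have other inducers. Its genes Socs3, Nfkbiz, Osmr, Csf3, S100a8 and S100a9 are also counted in lists given above, so the lists are not independent.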

How the data were processed

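Whole pancreas RNA, isolated with TRIzol and labelled with Cy3, was hybridised to Agilent arrays in a single colour, with 1 array for each animal. Per the file headers, the deposited intensity values are processed signals (background-subtracted spot signals) of Agilent Feature Extraction 10.7.3.1, beside other columns, the deposited flags, that mark spots well above background or as outliers. The log2 values of the deposited series table were normalized by the authors. How this was done is not given in the sources used here, and they correlated with the scanner's log2 intensities at r of 0.987 to 0.998 (column medians 6.56 to 6.94). Their centring is unknown, and they served as an alternative alone.

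From the 59305 non-control spots of each array, outlier spots (105 to 188) were left out, log2 processed signals were averaged per probe and the array's 75th percentile was subtracted. No probe spot was saturated. The number of arrays limits the precision. Probes were named through their RefSeq accession (27235 of 28685 matched 1 symbol). Probes well above background on at least 3 arrays were kept, and the brightest stood for each gene. Group means over all 15 arrays were fitted with limma 3.58.1 in R 4.3.3 (11 residual and 3.54 prior degrees of freedom), and 5 comparisons were tested, two-sided. The fit was tested on simulated data. Correlations used numpy 2.4.6 in Python 3.11.15.

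The interleukin genes, gene lists and families were chosen with earlier results of these data known. Genes given on each array are the called interleukin genes and 18 ligands and receptors best known in pancreatitis, and others that are given on each array were chosen after their values were seen. Of each other list, up to 5 called genes are all named, and with more than 5 called the 3 that changed most. Alternatives were normexp background correction on the median signal (the mean signal is not used here), quantile normalization, the series table, 2 other filters on dim probes, the mean of kept probes, slide as a block, no slide 2, array weights and each array left out. Leaving out the arrays highest and lowest in lymphocyte markers was added after seeing the data.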

Additional observations from a re-analysis of the deposited data

Results flagged for a closer look

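In the groups of 4, an array stood apart from the other 3 by Dixon's criterion in 4 of 78 groups, over 26 genes checked, and chance marks about 1 group in 20. Il11 was at -0.29 in TG cerulein replicate 16, on slide 2, where the other TG cerulein arrays lay between -2.31 and -2.03. It was at -0.90 in WT saline replicate 5, on slide 1, where the other WT saline arrays, all on slide 3, lay between -2.20 and -2.10. Il1r2 was at -5.05 in WT saline replicate 8, where the others lay between -5.64 and -5.59 and none of the 4 was well above background. Il27ra, a receptor chain of interleukin 27, was at -3.88 in WT cerulein replicate 10, where the others lay between -2.03 and -1.67. The causes were not tested.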

How the results depend on the processing

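Il6st kept its direction and its call under every alternative run, with differences of 1.28 to 1.76 in TG and 1.00 to 1.64 in WT pancreas and adjusted p of at most 0.0362 and 0.0497. The number of interleukin genes called after cerulein, 2 in TG and 4 in WT pancreas, depended on several choices. With array weights, which ran from 0.157 to 5.33, it was 26 in TG and 22 in WT pancreas. With slide as a block the WT count was 8, and without slide 2 it was 2. Without the arrays highest and lowest in lymphocyte markers, an alternative chosen after seeing the data, the counts were 1 and 2. With each array left out in turn they ran from 1 to 2 in TG and from 2 (without WT saline replicate 7) to 7 (without WT cerulein replicate 10) in WT pancreas. Array weights gave 3 genes between genotypes after saline and 4 after cerulein, where no other setting gave any. For array weights, no slide 2 and arrays left out, the shares of all genes called are not given here. These counts are therefore not set against all genes.

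For Il1r2, normexp correction turned the WT difference to -0.26 (adjusted p = 0.325), and in the series table it was 0.74 (adjusted p = 0.0514). Il17ra lost its call in 8 settings in each genotype, with normexp at 0.39 (adjusted p = 0.123) in TG and 0.28 (adjusted p = 0.177) in WT pancreas, and in WT pancreas without slide 2 (0.74, adjusted p = 0.0614). Il17rd lost its WT call without slide 2 (-0.67, adjusted p = 0.17) and without the arrays highest and lowest in lymphocyte markers (-0.94, adjusted p = 0.208). The causes were not tested. Normexp correction moved the median difference of all genes to -0.20 in TG and -0.23 in WT pancreas, from -0.06 in each, and the share of higher genes among all calls to 50.1% and 29.1%, beside 58.3% and 40.3%. Of 1969 values of comparisons not called for the 16 named genes, 14 became called and 204 changed sign under an alternative. Many ligands lay near background, which limits what could be measured of them. No paired analysis was possible because the replicate numbers name different animals and no number is shared by 2 groups.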

Other observations

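Some interleukin genes that the report gives only within a range are described here from their values on each array, chosen after those were seen, and none was called. Il18r1, the receptor chain that binds interleukin 18, had -3.74, -5.27, -2.89 and -3.07 in TG cerulein, against -2.27, -2.33 and -2.26 in TG saline pancreas, and -2.18, -3.44, -4.33 and -4.02 in WT cerulein, against -3.08, -3.16, -5.56 and -1.90 in WT saline pancreas. Every TG cerulein array lay below every TG saline array, and the WT groups overlapped. It was also among the 7 genes that followed the lymphocyte marker mean most closely.

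Il13ra2, a decoy receptor of interleukin 13, had 1.33, 1.36, 0.50 and 1.15 in TG cerulein, against 1.46, 1.24 and 1.14 in TG saline pancreas, and 0.37, 0.99, 0.97 and 1.55 in WT cerulein, against 1.03, 1.91, 1.90 and 1.43 in WT saline pancreas. Il13ra1, the signalling chain of the same ligand, had -2.54, -3.07, -2.65 and -1.39 in TG cerulein, against -2.85, -2.74 and -2.78 in TG saline pancreas, and -2.82, -2.69, -2.19 and -1.88 in WT cerulein, against -2.49, -3.11, -2.97 and -2.94 in WT saline pancreas. The groups of both genes overlapped in both genotypes.

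Il23a, the subunit particular to interleukin 23, was above background on 10 arrays and had -4.02, -4.02, -3.16 and -2.53 in TG cerulein, against -4.42, -3.49 and -4.20 in TG saline pancreas, and -2.55, -4.26, -2.05 and -1.57 in WT cerulein, against -2.11, -3.77, -4.32 and -3.64 in WT saline pancreas. The groups overlapped in both genotypes.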
